A study of Mus musculus with 4 samples.

Results

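Interferon-inducible GTPases are proteins that mouse cells make after interferon and that attack pathogens living inside vacuoles. The genes were chosen by name, and were Gbp2, Gbp3, Gbp5, Gbp7, Iigp1, Igtp, Irgm1, Irgm2, Tgtp1 and Ifi47. Every probe set annotated with exactly 1 of these symbols was used. This gave 12 probe sets of 9 genes, out of 45037 probe sets and 17097 genes with such a probe set in all. In the annotation used no probe set has the symbol Gbp5 alone, and Gbp5 was not analysed here.

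RNA came from splenic dendritic cells (DC) of MARCO-/- mice, which lack the scavenger receptor MARCO, and of WT mice, and 4 arrays were hybridized, with 1 array each for MARCO-/- LPS, WT LPS, MARCO-/- PBS and WT PBS. The DC were enriched from spleen by CD11c and kept overnight in LPS at 100 ng/ml or in PBS alone. LPS is the cell wall component of Gram-negative bacteria that TLR4 senses. The mice were 8 to 12 weeks old, matched for age and sex, and the cells of 5 to 6 mice were pooled. The labels spell the background of both genotypes C56BL/6, where the methods name C57BL/6, and the methods say that the WT mice were bought from a supplier, so genotype and origin of the mice cannot be told apart. With 1 array per condition there is no replicate, no error and no test, and every ratio below compares 2 arrays.

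GTPases of this kind fall into families with different roles. The guanylate-binding proteins (GBP) coat the vacuoles of parasites and the surface of cytosolic bacteria, and in mouse macrophages they help caspase-11 to sense LPS. Among the immunity-related GTPases (IRG), the effectors Iigp1 (Irga6), Tgtp1 (Irgb6) and Ifi47 (Irgd) load onto the vacuole membrane and break it. The regulators Irgm1, Irgm2 and Igtp (Irgm3) sit on the cell's own membranes and hold the effectors inactive there. Transcription of both families is driven by interferon gamma, through promoter elements called GAS, and by type I interferon and IRF factors, through elements called ISRE.

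The promoters of 9 of the 10 genes were found by symbol among the RefSeq promoters of build GRCm38.p6, each 250 bases before to 50 after the gene start. None was found for Iigp1, and Gbp5 is among the 9, so these are not the 9 genes measured on the arrays. The ISRE core was searched as GAAA and GAAA with any 2 bases between them, and the GAS as TTC and GAA with any 3 bases between them, on both strands. The GAS reads the same on either strand. The ISRE core occurred in 8 of the 9 genes, against 3.44% of all 32851 promoters, and the GAS in 5 of the 9, against 8.30%. The members were counted by gene and the background by promoter. Gbp3 has 2 promoters, and 1 of them has neither motif. The 6 stretches below end at the base before the gene start and are shown because they carry these elements close to the start. The first 3 have the GAS followed by the ISRE core, the fourth has 2 GAS elements farther from its ISRE core, and the last 2 have the ISRE core alone. Capitals mark the GAS (9 letters, beginning TTC) and the ISRE core (10 letters, beginning GAAA, or TTTC when read on the other strand).
Igtp: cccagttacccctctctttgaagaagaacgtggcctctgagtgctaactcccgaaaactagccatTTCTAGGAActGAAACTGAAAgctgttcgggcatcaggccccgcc
Irgm2: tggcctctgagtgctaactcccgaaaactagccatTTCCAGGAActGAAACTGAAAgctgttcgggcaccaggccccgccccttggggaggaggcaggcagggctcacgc
Tgtp1: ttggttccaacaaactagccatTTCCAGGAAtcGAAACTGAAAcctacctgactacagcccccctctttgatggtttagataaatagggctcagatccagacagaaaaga
Gbp7: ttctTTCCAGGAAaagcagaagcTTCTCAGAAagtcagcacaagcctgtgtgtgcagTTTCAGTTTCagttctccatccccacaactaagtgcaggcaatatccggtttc
Gbp2: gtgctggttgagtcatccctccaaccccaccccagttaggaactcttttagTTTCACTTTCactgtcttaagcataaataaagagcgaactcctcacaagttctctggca
Irgm1: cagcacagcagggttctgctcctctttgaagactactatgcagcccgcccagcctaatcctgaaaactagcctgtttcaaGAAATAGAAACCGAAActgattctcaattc
These stretches lie at chr11:58199446-58199555 (+ strand), chr11:58214867-58214976 (+ strand), chr11:48992247-48992356 (- strand), chr3:142530226-142530335 (+ strand), chr3:142620553-142620662 (+ strand) and chr11:48871421-48871530 (- strand), in the order printed.

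In Igtp, Irgm2 and Tgtp1 the GAS and the ISRE core were 2 bases apart, with the GAS starting 45, 75 and 88 bases before the start. This spacing was noticed in the sequences and then counted: 5 of all 32851 promoters had it, those of Igtp, Irgm2, Tgtp1, its near copy Tgtp2 and Gm12185. Igtp and Irgm2 are neighbouring genes, and their promoters share an unbroken run of 61 bases, so they are not separate instances of the pattern. Tgtp1 and Irgm2 share a run of 20 bases that includes the GAS, and Tgtp1 and Tgtp2 share a run of 27. Tgtp1 can therefore not be taken as a separate instance either. In Irgm1 and in Gbp3 there were 2 ISRE cores that overlap by their outer letters. Gbp5 had an ISRE core 165 bases and GAS elements 245 and 52 bases before its start. Neither motif was found in the window of Ifi47, which says only that these letters are not there. A match of letters is a description and no evidence that a factor binds.

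**Figure D1:**
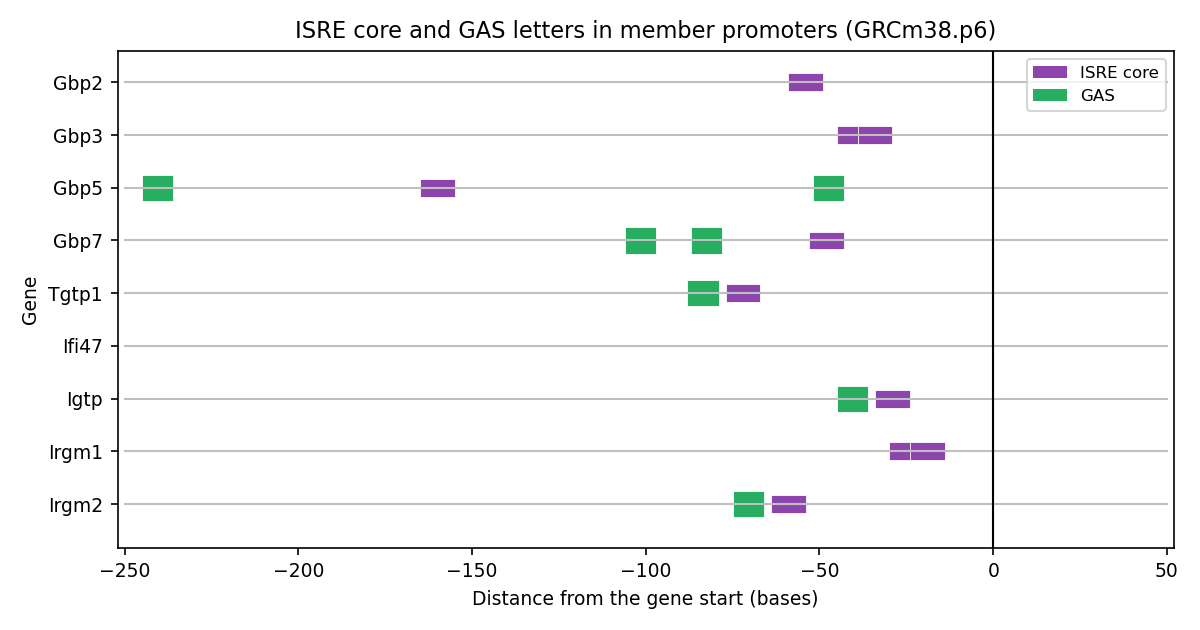
Positions of the ISRE core (purple) and the GAS (green) in the promoters of 9 genes; the horizontal axis is the distance from the gene start in bases, and each grey line is 1 gene's promoter. In 7 genes an ISRE core begins between 77 and 24 bases before the start, in Gbp5 it begins 165 bases before, and Ifi47 has neither motif.

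The first question was which of these genes the DC expressed. Values are intensities that the authors normalized with RMA, a method that corrects the background, equalizes the arrays and summarizes the probes of a set. Values near 4.87, the median of all intensities, are background. The 12 probe sets lay between 37.0 and 1219 in MARCO-/- LPS, between 58.8 and 1522 in WT LPS, between 24.7 and 339 in MARCO-/- PBS and between 9.85 and 172 in WT PBS. All 12 were thus above that median on every array, and the lowest value, of a probe set of Iigp1 in WT PBS, was 2.02 times the median. Levels of different genes are not compared, since probe sets differ in how well they bind.

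The effector Tgtp1 (probe set 1449009_PM_at) had an intensity of 1155 in MARCO-/- and 1522 in WT with LPS, and of 330.1 in MARCO-/- and 158 in WT with PBS. Ifi47 (1417292_PM_at), which mice need to resist Toxoplasma, had 1031 in MARCO-/- and 1209 in WT with LPS, and 339 in MARCO-/- and 172 in WT with PBS. Iigp1, which binds and disrupts the vacuole of Toxoplasma, had 93.7 in MARCO-/- and 118 in WT with LPS, and 62.6 in MARCO-/- and 23.4 in WT with PBS, by its brighter probe set (1419043_PM_a_at). All 3 effectors had the same order of arrays: WT LPS was the highest, then MARCO-/- LPS, then MARCO-/- PBS, then WT PBS. The other probe set of Iigp1 (1419042_PM_at) had this order too, with 37.0 in MARCO-/- and 58.8 in WT with LPS, and 24.7 in MARCO-/- and 9.85 in WT with PBS. The order was not particular to the effectors: the regulator Irgm1 and the dimmer probe sets of Gbp2 and Gbp7, described below, had it as well. Tgtp1 and Tgtp2 are near-identical genes, so the Tgtp1 probe set may also read Tgtp2.

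The regulator Irgm1 (1418825_PM_at), which mice need against mycobacteria, had an intensity of 452 in MARCO-/- and 465 in WT with LPS, and of 109 in MARCO-/- and 79.3 in WT with PBS. Irgm2 (1417793_PM_at), a regulator at the Golgi, had 162 in MARCO-/- and 115 in WT with LPS, and 32.1 in MARCO-/- and 17.3 in WT with PBS. Igtp (1417141_PM_at), a regulator at the endoplasmic reticulum, had 271 in MARCO-/- and 236 in WT with LPS, and 73.4 in MARCO-/- and 41.5 in WT with PBS. All 3 regulators had more signal in MARCO-/- when kept in PBS, and Igtp and Irgm2 were highest of all in MARCO-/- LPS.

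Gbp2, a GBP that is recruited to parasite and bacterial vacuoles, had an intensity of 1219 in MARCO-/- and 1183 in WT with LPS, and of 157 in MARCO-/- and 107 in WT with PBS, by its brighter probe set (1435906_PM_x_at). Its other probe set (1418240_PM_at) had 1082 in MARCO-/- and 1094 in WT with LPS, and 127 in MARCO-/- and 83.5 in WT with PBS. The genotypes were thus close to each other with LPS in both probe sets, and MARCO-/- was the higher with PBS. Gbp3 (1418392_PM_a_at), another GBP of the same gene cluster, had 341 in MARCO-/- and 302 in WT with LPS, and 84.9 in MARCO-/- and 76.9 in WT with PBS. Gbp7, which in mouse macrophages joins GBP to the oxidase that makes reactive oxygen, had 285 in MARCO-/- and 263 in WT with LPS, and 99.0 in MARCO-/- and 58.4 in WT with PBS (1434380_PM_at). The other probe set of Gbp7 (1425156_PM_at) had 219.8 in MARCO-/- and 275 in WT with LPS, and 88.9 in MARCO-/- and 54.1 in WT with PBS, so that the probe sets of Gbp7 differ in which genotype is higher with LPS.

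**Figure D2:**
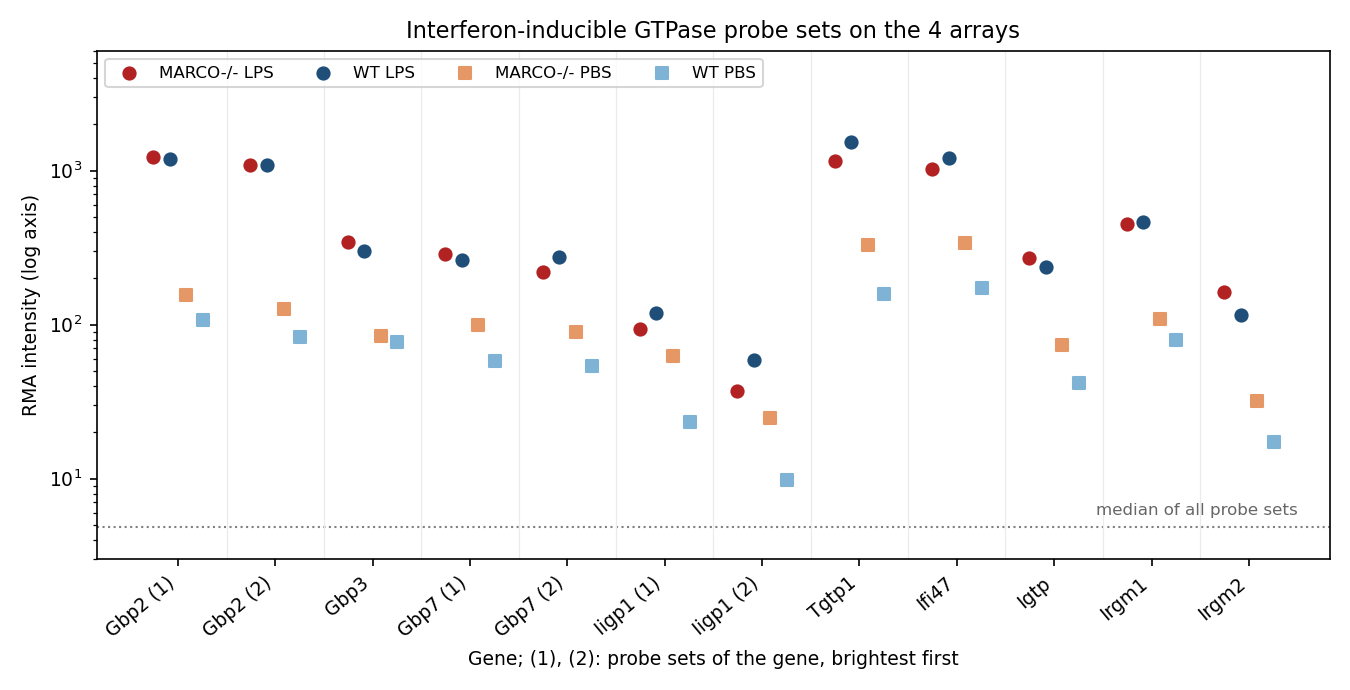
RMA intensity (log axis) of the 12 probe sets on the 4 arrays, 1 point per array; circles are LPS and squares PBS, and the dotted line is the median of all probe sets, 4.87. For each probe set the LPS points lie above the PBS points, and with PBS MARCO-/- lies above WT.

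The LPS comparison asks how the DC of each genotype responded to a TLR4 ligand. In MARCO-/- 10 of the 12 had LPS over PBS ratios of 2-fold or more, where 5.14% of all probe sets passed this fold, and in WT all 12 did, where the share was 4.59%. None was at least 2-fold lower, where 4.98% of all probe sets in MARCO-/- and 7.97% in WT were. The median log2 ratio of the 12 was 1.84 in MARCO-/- and 2.57 in WT, and that of all probe sets was 0.00 in MARCO-/- and 0.03 in WT. A fold of at least 2 is the threshold of the methods.

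Gbp2 had the highest ratio of the 9 genes in either genotype, 7.78-fold higher with LPS in MARCO-/- and 11.1-fold in WT by its brighter probe set. By the other it was 8.53-fold higher in MARCO-/- and 13.1-fold in WT, and this probe set ranked 155 in MARCO-/- and 83 in WT from the highest of all 45037 ratios. Among the effectors, Tgtp1 was 3.50-fold higher in MARCO-/- and 9.62-fold in WT, and Ifi47 was 3.04-fold higher in MARCO-/- and 7.02-fold in WT. Iigp1 missed 2-fold in MARCO-/-, with a log2 ratio of 0.58 by either probe set, and was 5.05-fold and 5.97-fold higher in WT. The regulators lay closer together: Irgm1 was 4.14-fold higher in MARCO-/- and 5.87-fold in WT, Irgm2 5.05-fold in MARCO-/- and 6.65-fold in WT, and Igtp 3.69-fold in MARCO-/- and 5.69-fold in WT. Gbp3 alone had nearly the same ratio in both, 4.02-fold in MARCO-/- and 3.93-fold in WT, while Gbp7 had 2.88-fold in MARCO-/- and 4.51-fold in WT by its brighter probe set, and 2.47-fold in MARCO-/- and 5.09-fold in WT by the other.

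**Figure D3:**
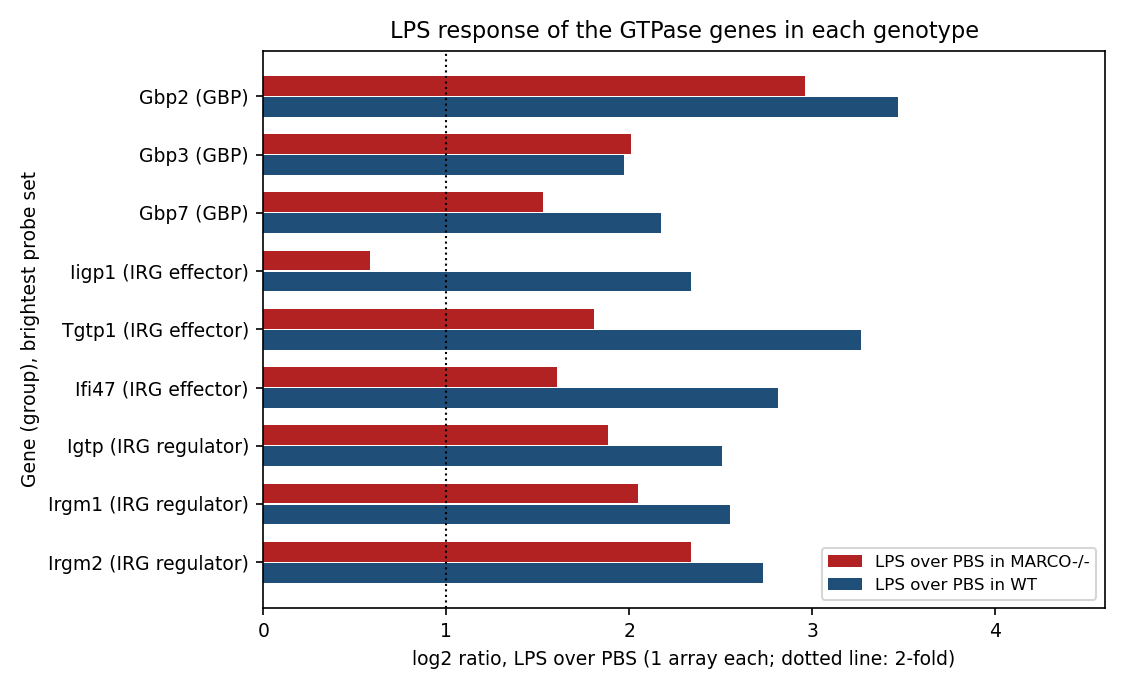
log2 ratio of LPS over PBS (horizontal axis) for the 9 genes by their brightest probe set; red bars are MARCO-/-, blue bars WT, each bar is a ratio of 2 arrays, and the dotted line marks 2-fold. The gap between the bars is widest for the effectors Iigp1, Tgtp1 and Ifi47, and Iigp1 in MARCO-/- is the bar that stays short of 2-fold.

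The difference of the LPS responses was taken as the log2 ratio of LPS over PBS in MARCO-/- minus that in WT. It was below 0 in 11 of the 12 probe sets, with a median of -0.64, and above 0 in Gbp3 alone, at 0.03. Of all 45037 probe sets 23115 were below 0, and the median was -0.01. Of the 15118 brighter ones, those with a highest intensity of at least 4 times the median, 4995 were below 0, and the median was 0.20. By the brightest probe set of each gene, the 3 effectors had -1.75 for Iigp1, -1.46 for Tgtp1 and -1.21 for Ifi47, and the other 6 genes lay between -0.64 and 0.03, so the ranges did not overlap. The other probe set of Gbp7 lay between these ranges, at -1.04. They stayed apart after quantile normalization, cyclic loess, centring on the median and with 16 added to each intensity. After quantile normalization or cyclic loess Gbp3 was below 0 as well.

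The comparison of genotypes with PBS asks what MARCO deficiency changes in resting DC. All 12 probe sets had their higher value in MARCO-/-, from 1.10-fold to 2.67-fold. Of the 12, 3 were at least 2-fold higher, where 0.513% of all probe sets were, and 9 were at least 1.5-fold higher, where 1.91% were. None was at least 2-fold lower, where 0.442% of all probe sets were. The median log2 ratio of the 12 was 0.79, against 0.00 for all probe sets and -0.03 for the 15118 brighter ones.

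The probe sets past 2-fold belonged to effectors. Iigp1 was 2.67-fold and 2.51-fold higher in MARCO-/- by its probe sets, which ranked 107 and 131 from the highest of all 45037 ratios, and Tgtp1 was 2.09-fold higher. Ifi47, the remaining effector, was 1.97-fold higher. Of the regulators, Irgm2 was 1.86-fold, Igtp 1.77-fold and Irgm1 1.38-fold higher. Of the GBP, Gbp7 was 1.70-fold and 1.64-fold higher, Gbp2 1.47-fold and 1.52-fold, and Gbp3 1.10-fold. The 3 effectors thus lay above the other 6 genes, whose highest ratio was 1.86-fold. After quantile normalization or cyclic loess Ifi47 passed 2-fold too, and with 16 added to each intensity no probe set did, so the calls at 2-fold rest on values close to the threshold.

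After LPS none of the 12 probe sets was 2-fold apart between MARCO-/- and WT in either direction, where 1.86% of all probe sets were higher and 0.99% lower. At 1.5-fold 1 was lower, where 4.43% of all probe sets were. Their ratios ran from 0.628-fold to 1.41-fold, with 5 above 1 and 7 below, and the median log2 ratio was -0.03, against 0.00 for all probe sets and 0.16 for the 15118 brighter ones. The effectors had lower values in MARCO-/-, at 0.759-fold for Tgtp1, 0.792-fold for Iigp1 and 0.853-fold for Ifi47. Of the other 6 genes, Irgm2 had 1.41-fold, Igtp 1.15-fold, Gbp3 1.13-fold, Gbp7 1.08-fold and Gbp2 1.03-fold, and Irgm1 had 0.972-fold. Once the arrays were centred on their medians, Irgm1 had 1.02-fold, 7 of the 12 were above 1 and the median log2 ratio was 0.05, so these directions depend on the scaling. With 1 probe set per gene the median was 0.04. The other probe set of Iigp1 had the lowest ratio, 0.628-fold, and that of Gbp7 had 0.799-fold.

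**Figure D4:**
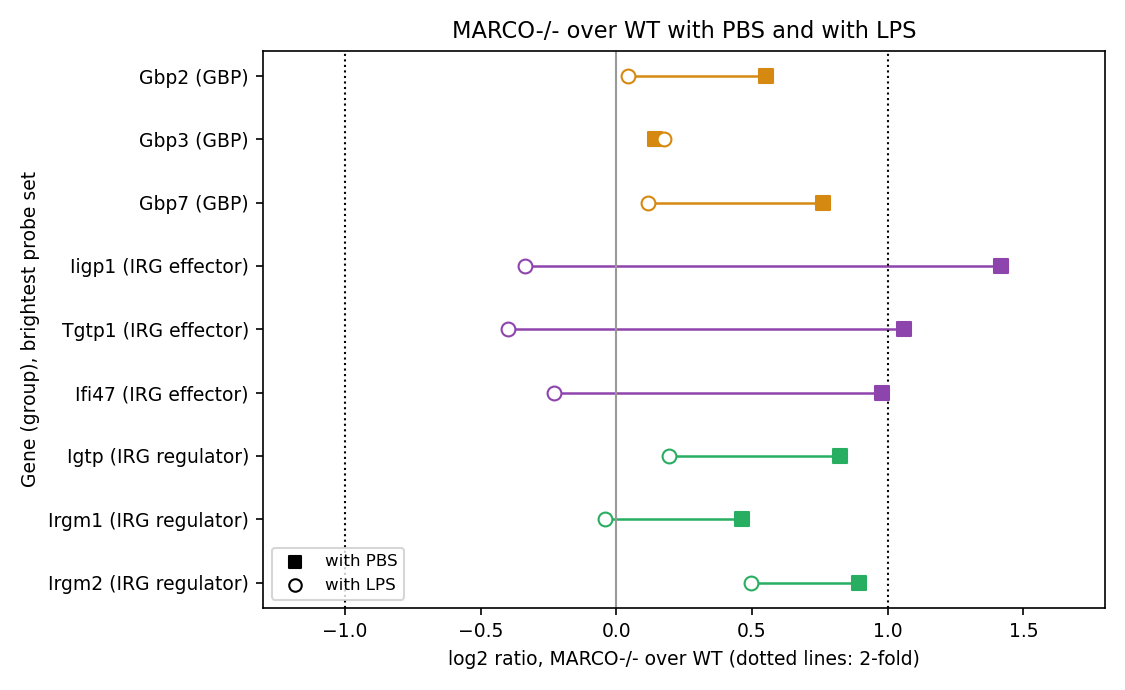
log2 ratio of MARCO-/- over WT (horizontal axis) for the 9 genes by their brightest probe set, with PBS (filled squares) and with LPS (open circles), each a ratio of 2 arrays; colours are the groups of genes and dotted lines mark 2-fold. With PBS the effectors have the highest ratios, at 0.98 to 1.42, and with LPS they have the lowest, at -0.40 to -0.23.

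RNA of other cells differed between the arrays as well. The 10 macrophage markers had a summed intensity of 218 in MARCO-/- and 189 in WT with LPS, and of 2966 in MARCO-/- and 1783 in WT with PBS, where all 10 were higher in MARCO-/- and 3 were past 2-fold. With LPS 3 of the 10 were past 2-fold with more in MARCO-/- and 4 with less, and the median log2 ratio was -0.55. The 4 lower ones, the complement genes C1qa, C1qb and C1qc and the mannose receptor gene Mrc1, were above WT with PBS and below it with LPS, as the effectors were. With LPS C1qa had an intensity of 6.06 in MARCO-/- and 36.8 in WT, and Mrc1 had 2.72 in MARCO-/- and 12.1 in WT, with the MARCO-/- values at background. The 7 stromal markers summed to 41.3 in MARCO-/- and 1623 in WT with LPS, and to 511 in MARCO-/- and 37.1 in WT with PBS, and the 5 skeletal muscle markers to 22.9 in MARCO-/- and 419.9 in WT with LPS, and to 159.8 in MARCO-/- and 23.7 in WT with PBS. With PBS 5 of 7 stromal and 5 of 5 muscle markers were past 2-fold with more in MARCO-/-, and with LPS 6 of 7 and 5 of 5 with less. Stromal and muscle markers thus ran in the direction of the effectors, above WT in the PBS array of MARCO-/- and below it in the LPS array. With PBS 2 of 3 erythroid and 2 of 5 endothelial markers were also past 2-fold with more in MARCO-/- and none with less, with the erythroid gene Slc4a1 at 5.74-fold. The part of these other cells in the GTPase values was not tested. The 12 NK and T cell markers, of cells that make interferon gamma, summed to 405 in MARCO-/- and 591 in WT with LPS, and to 1445 in MARCO-/- and 1893 in WT with PBS, so their sum was lower in MARCO-/- in both conditions. Much of the gap between these sums came from the granzyme gene Gzma. It had 54.7 in MARCO-/- and 209 in WT with LPS, and 277 in MARCO-/- and 597 in WT with PBS. Single markers differed in direction, with 5 of the 12 above 1 and a median log2 ratio of -0.07 with PBS, and 4 above 1 and a median of -0.09 with LPS. The markers past 2-fold were the same in both conditions. The NK cell receptor gene Ncr1 was 2.87-fold higher in MARCO-/- with PBS and 2.73-fold higher with LPS. The granzyme genes were lower, with Gzma at 0.464-fold with PBS and 0.262-fold with LPS, and Gzmb at 0.483-fold and 0.304-fold. The 4 B cell markers measured summed to 1433 in MARCO-/- and 1926 in WT with LPS, and to 1100 in MARCO-/- and 1389 in WT with PBS. None of them was past 2-fold between genotypes. With PBS 1 of the 4 was above 1 (median log2 ratio -0.15), and with LPS 2 were (median -0.11). The 9 DC markers measured summed to 4764 in MARCO-/- and 5352 in WT with LPS, and to 12970 in MARCO-/- and 12456 in WT with PBS. The lower sum in MARCO-/- with LPS came from H2-Aa, at 2035 in MARCO-/- and 3013 in WT. By single markers, 6 of the 9 were above 1 with LPS, with a median log2 ratio of 0.24, and Sirpa was 2.06-fold higher. With PBS 5 of the 9 were above 1, with a median of 0.07. Itgax, which encodes CD11c, had 16.4 in MARCO-/- and 12.9 in WT with LPS, and 621 in MARCO-/- and 548 in WT with PBS. In such bulk RNA fewer cells of a type and less RNA per cell cannot be told apart.

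Interferons and the cytokines that induce interferon gamma came first among the genes upstream. Of 10 measured, none passed 2-fold between genotypes with PBS or with LPS. Of all genes, 0.760% were higher and 0.287% lower with PBS, and 2.09% higher and 1.31% lower with LPS. A short list with none past 2-fold is thus near the share of all genes, here and in the lists that follow. However, 6 of the 10 stayed under 4 times the median of all intensities on every array. Ifna2, Ifna4, Ifna5 and Ifna11 were at background throughout, so their ratios say little. Ifng had an intensity of 9.42 in MARCO-/- and 16.8 in WT with LPS, and of 30.1 in MARCO-/- and 43.7 in WT with PBS, so it was lower in MARCO-/- in both conditions. Ifnb1 had 3.22 in MARCO-/- and 4.97 in WT with LPS, and 3.84 in MARCO-/- and 3.38 in WT with PBS, at background on each array. Il15 was 12.7-fold higher with LPS in MARCO-/- and 7.52-fold in WT, and Il18, which stimulates interferon gamma, had 23.5 in MARCO-/- and 26.7 in WT with LPS, and 257 in MARCO-/- and 219.5 in WT with PBS.

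Of 7 interferon receptors and kinases none passed 2-fold between genotypes. Ifngr1, the ligand-binding chain for interferon gamma, was lower with LPS, at 98.5 in MARCO-/- and 74.8 in WT with LPS, against 501 in MARCO-/- and 421 in WT with PBS. Ifngr2, its signalling chain, had 189 in MARCO-/- and 348 in WT with LPS, and 191 in MARCO-/- and 179 in WT with PBS, so its LPS over PBS ratio was 0.989-fold in MARCO-/- and 1.95-fold in WT. Of 11 transcription factors measured none passed 2-fold between genotypes. For LPS over PBS, 4 were at least 2-fold higher and 2 lower in MARCO-/-, where 6.32% of genes were higher and 5.98% lower. In WT 5 were higher and 2 lower, where 6.20% of genes were higher and 8.31% lower. Irf9, an IRF factor that acts at the ISRE after type I interferon, had 230.4 in MARCO-/- and 273 in WT with LPS, and 154 in MARCO-/- and 106 in WT with PBS, in the same order of arrays as the effectors. Batf, a partner of IRF factors, had this order too, with 64.0 in MARCO-/- and 104 in WT with LPS, and 26.7 in MARCO-/- and 19.9 in WT with PBS. Irf1, which acts at the ISRE of GBP genes, had a different order, at 621 in MARCO-/- and 504 in WT with LPS, and 242 in MARCO-/- and 215 in WT with PBS.

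Of 8 inhibitors of interferon signalling none passed 2-fold between genotypes. Socs1, which blocks the JAK kinases, had 31.6 in MARCO-/- and 16.8 in WT with LPS, and 4.14 in MARCO-/- and 5.49 in WT with PBS, so it was at background with PBS in both genotypes. Usp18, which shuts off the type I interferon receptor, was 9.94-fold higher with LPS in MARCO-/- and 11.8-fold in WT.

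Other genes that interferon induces did not all show the profile of the GTPases. Of 17 type I interferon-stimulated genes measured, the PBS arrays had 2 past 2-fold with more in MARCO-/- (Ifit1 and Rsad2 by 1 of its 3 probe sets) and the LPS arrays 3 (Mx2, Oas2 and Oasl2), and none was lower, where 0.760% of genes with PBS and 2.09% with LPS were higher. Their median log2 ratio was 0.50 with PBS and 0.51 with LPS, where the 9 GTPase genes had 0.82 with PBS and 0.04 with LPS. Single genes differed: Ifit1 went from 2.83-fold with PBS to 1.19-fold with LPS, and Rsad2 from 2.34-fold to 1.29-fold. The LPS response was smaller in MARCO-/- than in WT for 7 of the 17 and larger for 10. Of the 9 GTPase genes it was smaller for 8 and larger for 1, and of all 45037 probe sets it was smaller for 23115 and larger for 21700. Of 13 interferon gamma-induced genes other than GTPases, none passed 2-fold with PBS (median log2 ratio 0.04) and 1 was higher with LPS, the receptor gene Fcgr1 by 1 of its 2 probe sets. Cxcl9, a chemokine that interferon gamma induces, had 9.99 in MARCO-/- and 19.2 in WT with LPS, and 474 in MARCO-/- and 461 in WT with PBS. It was thus lower with LPS in both genotypes, while each GTPase gene had higher values with LPS. Of the 13, 6 were at least 2-fold higher with LPS in MARCO-/-, where 6.32% of genes were, and 6 in WT, where 6.20% were. These were not all the same genes. By the brightest probe set Psmb8 was 2.19-fold higher in MARCO-/- and 1.76-fold in WT, and Wars 1.65-fold in MARCO-/- and 2.65-fold in WT. Only 2, Cxcl9 and Ciita, were at least 2-fold lower, where 5.98% of genes in MARCO-/- and 8.31% in WT were. Ido1 was 31.0-fold higher with LPS in MARCO-/- and 23.4-fold in WT.

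The list of other GTPases and related genes held 9 measured ones, of which Gbp2b, Gbp4, Irgq and Irgc1 stayed under 4 times the median of all intensities on every array. None passed 2-fold between genotypes with PBS, where 0.760% of all genes were higher. With LPS Mx2 alone was higher in MARCO-/-, at 2.39-fold, where 2.09% of all genes were. Gbp10, a GBP of the cluster on chromosome 5, had 45.8 in MARCO-/- and 50.6 in WT with LPS, and 11.1 in MARCO-/- and 7.98 in WT with PBS, and was 4.15-fold higher with LPS in MARCO-/- and 6.34-fold in WT. Gbp8 of the same cluster went the other way, with 89.0 in MARCO-/- and 45.3 in WT with LPS, and 178 in MARCO-/- and 97.9 in WT with PBS, so its LPS over PBS ratio was 0.501-fold in MARCO-/- and 0.463-fold in WT. The antiviral GTPase gene Mx1 had 215 in MARCO-/- and 121 in WT with LPS, and 35.3 in MARCO-/- and 47.6 in WT with PBS, and Rnf213, which is not a GTPase but a large ubiquitin ligase with an ATPase core, had 653 in MARCO-/- and 410.4 in WT with LPS, and 207 in MARCO-/- and 139 in WT with PBS.

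**Figure D5:**
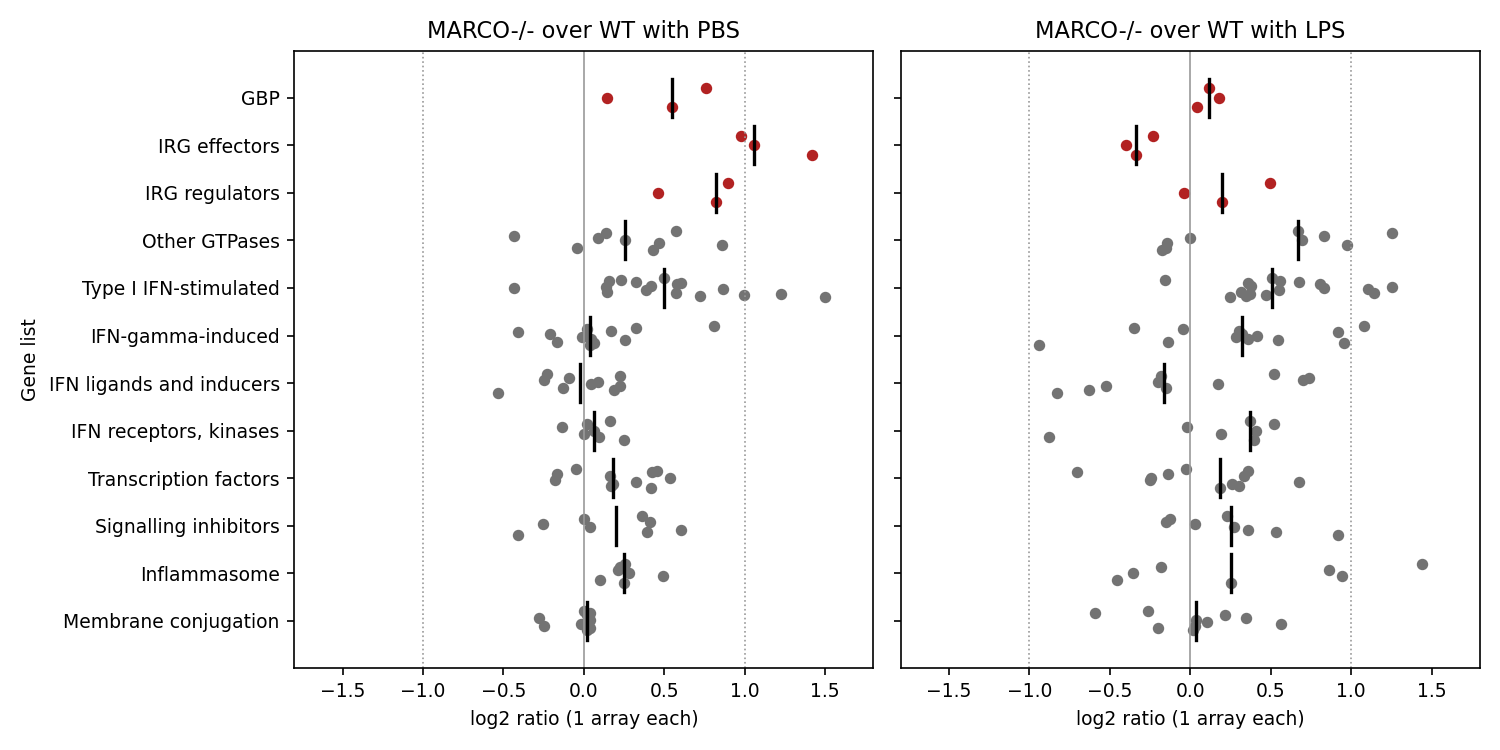
log2 ratio of MARCO-/- over WT (horizontal axes) with PBS, left, and with LPS, right, for the genes of 12 lists by their brightest probe set; each point is 1 gene and a ratio of 2 arrays, black bars are list medians and red points the 9 GTPase genes described. The effectors have a median of 1.06 with PBS and -0.34 with LPS, and the type I interferon-stimulated genes 0.50 with PBS and 0.51 with LPS.

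To find genes of like profile, the log2 intensities of each gene were centred over the 4 arrays and the Euclidean distance to the median profile of the 9 GTPase genes was taken, over 7579 genes of sufficient brightness. Igtp itself was the closest, at 0.12, and Ifi47 the next, at 0.27. The closest other genes were Ccnd2, a cyclin of the G1 phase, at 0.27, Isg20, an interferon-induced exonuclease, at 0.28, the zinc finger gene Zfp809 at 0.29, Palld, an actin-binding protein, at 0.32, and Gbp10 at 0.33. Ccnd2 had an intensity of 848 in MARCO-/- and 972 in WT with LPS, and of 303 in MARCO-/- and 153 in WT with PBS. Isg20 had 224 in MARCO-/- and 177 in WT with LPS, and 67.2 in MARCO-/- and 36.0 in WT with PBS. Gbp2 and Iigp1 were the members farthest from the median profile, at 1.05 and 0.90. The 4 arrays give few points for such a likeness, and it says nothing of shared control.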

How the data were processed

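RNA of splenic DC was hybridized to Affymetrix mouse 430 arrays, 1 per genotype and treatment. The deposited intensities were extracted from CEL files and normalized by the authors with RMAexpress, of a version not stated in the sources used here. They are linear values, and ratios were formed from their log2 without an offset. Of 45141 probe sets, 104 controls were left out. In the annotation used 28898 have 1 gene symbol, 551 several, and 15588 are not listed. A gene in a list was represented by its brightest probe set. There was no test, since each group holds 1 array, and the number of arrays limits the precision. The call was a ratio of 2 or more in either direction. The genes named were all members, up to 4 genes with the largest ratios of each list, those behind counts of 5 or fewer, and the 5 of the most similar profile. Other named genes were chosen after their values were seen. The members and lists were chosen with earlier results of these data known. Alternatives were quantile normalization, cyclic loess, centring, a pseudocount of 16, folds of 1.5 and 3, and other choices of probe sets. The calling step was tested on simulated data. Python 3.11.15, numpy 2.4.6, pandas 2.3.3, matplotlib 3.10.9, R 4.3.3 and limma 3.58.1 were used.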

Additional observations from a re-analysis of the deposited data

Results flagged for a closer look

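For 2 effector genes the ratio of MARCO-/- over WT went in opposite directions with PBS and with LPS. The log2 ratio of Iigp1 was 1.42 with PBS and -0.34 with LPS, and that of Tgtp1 was 1.06 with PBS and -0.40 with LPS. Ifi47, with 0.98 with PBS and -0.23 with LPS, fell short of the smallest ratio set for such a pair. The difference between the conditions was not tested, since each value rests on 2 arrays.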

How the results depend on the processing

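The 3 probe sets past 2-fold in MARCO-/- over WT with PBS became 9 at a threshold of 1.5-fold, 0 at 3-fold and 0 with 16 added to each intensity, an offset that shrinks ratios of dim probe sets. With LPS 1 probe set was lower at 1.5-fold. Of 112 repeats of counts and medians these 4 moved by over 1.5 times, and 108 did not. Of 144 repeats of gene ratios 1 did, that of Irgm2 with LPS in WT, whose log2 ratio was 1.98 with 16 added. No called ratio changed sign. No paired analysis was possible because each group holds 1 array. Dim values, such as Iigp1 in WT PBS, limit the ratios that rest on them.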

Other observations

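Of 7 inflammasome genes measured downstream of GBP, none was past 2-fold in MARCO-/- over WT with PBS, where 0.760% of all genes were higher. With LPS 1 was, where 2.09% of all genes were higher. This was Naip5, a sensor of bacterial flagellin, at 13.8 in MARCO-/- and 5.08 in WT, where the WT value is at background. Casp4, which encodes caspase-11, the LPS sensor that GBP assist, had an intensity of 320 in MARCO-/- and 439 in WT with LPS, and of 87.5 in MARCO-/- and 81.5 in WT with PBS, so it was 3.65-fold higher with LPS in MARCO-/- and 5.38-fold in WT. Nlrp3 had 38.2 in MARCO-/- and 19.9 in WT with LPS, and 76.1 in MARCO-/- and 54.1 in WT with PBS, and Il1b had 604 in MARCO-/- and 333 in WT with LPS, and 392 in MARCO-/- and 338 in WT with PBS. Of 10 genes in a list that held the ubiquitin ligase gene Traf6 and the ATG8 conjugation system, which in mouse cells guides IRG and GBP to vacuoles, none was past 2-fold by its brightest probe set in any of the 4 comparisons. Of the 2 probe sets of Gabarapl1, 1 was past 2-fold for LPS over PBS in MARCO-/- and 1 for MARCO-/- over WT with LPS. Their median log2 ratio of MARCO-/- over WT was 0.02 with PBS and 0.03 with LPS.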
